A study of Mus musculus with 18 samples.

Results

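Splenic B cells lacking Ubiquilin-1 were compared with wild-type (WT) B cells at rest. The members were the 6 libraries, of 18 in the series, whose labels give no stimulation, 3 from WT and 3 from Ubqln1-/- mice. All mice were of the C57BL/6 N strain and at least 8 weeks old. B cells were purified from the spleen with a magnetic isolation kit, plated, left without stimulus beside the stimulated cells for 4 hr, and their wells pooled before RNA was prepared. In the knockout, exon 2 of Ubqln1 had been removed by transient Cre expression in C57BL/6 embryonic stem cells, so the deletion was present in every tissue of the mice and not in B cells alone. The other 12 libraries came from the same genotypes after 10 μg/mL anti-IgM, which crosslinks the B cell antigen receptor (BCR), or 20 μg/mL LPS, which activates TLR4. They entered the model to share the estimate of spread and are described where a genotype difference at rest was set beside that after stimulation.

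Ubiquilins are cytosolic shuttle proteins. An N-terminal ubiquitin-like domain binds the proteasome, a C-terminal domain binds ubiquitin, and the region between them holds hydrophobic segments of membrane and mitochondrial proteins that have failed to reach their organelle, so that such proteins can be inserted or degraded. Resting B cells are small, quiescent cells that circulate through the spleen, make little protein, and enter the cell cycle once the BCR or a Toll-like receptor is engaged. The comparison at rest asks which mRNAs differed between the genotypes before any such signal.

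The targeted gene is shown first because every later comparison rests on the genotype labels. Exon 2 of Ubqln1 lies at chr13:58198919-58199070 of GRCm38 on the minus strand. It is coding throughout in the 2 full-length GENCODE transcripts and is 152 bases long, which leaves 2 bases over after whole codons. Its sequence, 5′ to 3′, is given here with the bases that are left over, counting codons from its first base, in capitals.

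Ubqln1 exon 2: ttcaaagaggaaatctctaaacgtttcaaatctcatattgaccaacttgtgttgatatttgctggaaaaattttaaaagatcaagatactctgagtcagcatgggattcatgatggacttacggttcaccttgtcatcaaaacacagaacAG

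Ubqln1 mRNA (gene at chr13:58176156-58215653, minus strand) was measured over all of its exons, of which exon 2 makes up 4.12% of the counted width. It stood at 237, 236 and 229.5 CPM (counts scaled to the library size) in the 3 WT libraries and at 92.7, 91.4 and 106 CPM in the 3 Ubqln1-/- libraries. The 2 groups were far apart and tight within themselves. The mRNA fell by 58.6% (log2 fold change -1.27 with a standard error of 0.07, edgeR adjusted p = 6.68e-08), from 234 ± 3.98 to 96.8 ± 8.22 CPM (SD, n = 3 each), and the fall held in 6 of 6 fits that left out 1 resting library. The counts are sums over the gene, so reads on single exons were not analysed here. All 3 libraries of each group therefore matched their labels.

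The 6 libraries held between 15368941 and 24725416 counts and were much alike. The correlation of log2 CPM was 0.987 to 0.993 between libraries of the same genotype (6 pairs) and 0.987 to 0.993 between libraries of different genotypes (9 pairs). Defining B cell markers were high throughout, with Cd79a at 1255 to 1435 CPM. The 9 T cell markers summed to 3.93 to 4.99 CPM in WT and 4.34 to 6.35 CPM in Ubqln1-/- libraries, with Cd3d, Cd3e and Cd3g at most 0.237 CPM each. Dendritic cell markers summed to 14.1 to 23.7 CPM in WT and 18.4 to 23.1 CPM in Ubqln1-/- libraries, and the 8 myeloid markers to 32.6 to 57.2 CPM in WT and 38.2 to 59.7 CPM in Ubqln1-/- libraries. Erythroid markers reached at most 7.52 CPM and platelet markers 8.02 CPM, and NK cell, neutrophil and stromal markers at most 1.28 CPM, each as a sum in any library. None of the marker genes that were tested passed between genotypes. The filter on low counts left 3 of 9 T cell markers, and 0 of 5 NK cell, 0 of 7 neutrophil and 0 of 3 stromal markers, to be tested. Xist was at 899.6 to 1123 CPM and 4 Y-linked genes had no count in any of the 6 libraries. Nnt, part of which is deleted in some C57BL/6 substrains, was at 52.2 to 61.9 CPM in all 6.

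Of 14161 genes tested, 8 passed an adjusted p under 0.05 between genotypes in resting cells, which is 0.0565% of the genes tested. Higher in Ubqln1-/- cells were 3 of them (0.0212%) and lower were 5 (0.0353%). Vill was the 1 gene (0.00706%) that also met the thresholds used in the study, an adjusted p under 0.001 and an absolute log2 fold change over 2, here taken as base 2, and 0 genes met them without WT replicate 2 or without WT replicate 3. Most genes moved little, since 94.1% of the tested genes had an absolute log2 fold change under 0.5, the median was 0.0023 and the median standard error was 0.12. The p-values rest on a spread estimated over all 18 libraries of the 6 groups, which the labels call biological replicates. Resting and stimulated libraries with the same number within a genotype shared deviations (correlations of 0.228 to 0.516). The stimulated libraries are therefore not independent of the resting ones, and the p-values do not measure the spread of the resting libraries alone. A fit over the 6 resting libraries alone gave 5 genes, of which 4 are among the 8. In bulk RNA, fewer cells of a type and less RNA per cell cannot be told apart. DESeq2 gave 32 genes and limma with voom, the tool of the study, gave 6. The study describes 3 independent experiments and paired tests beside single-term models, and the labels do not say what a replicate number marks. With that number as a block edgeR gave 49 genes (0.346%), 28 higher and 21 lower.

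**Figure D1:**
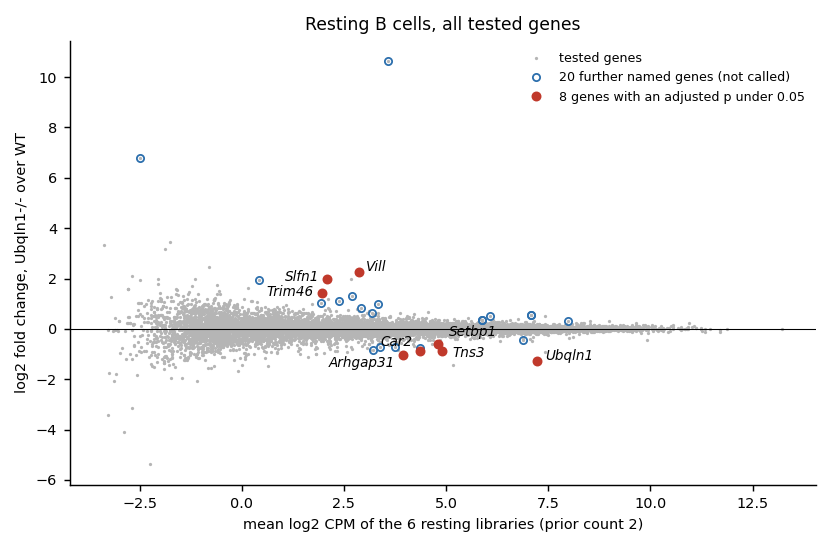
Log2 fold change (Ubqln1-/- over WT, vertical axis) against mean log2 CPM over the 6 resting libraries (horizontal axis) for the 14161 tested genes, with the 8 called genes filled and 20 further named genes as open circles. Most points lie near 0, and the called genes stand off the cloud at the level their counts allow, from Vill at 2.25 to Ubqln1 at -1.27.

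The genes that rose were Vill, Trim46 and Slfn1, all of low level in WT cells. Vill (chr9:119052729-119071525, plus strand) encodes a villin-like protein of the gelsolin and villin family of actin-binding proteins. It was at 4.09, 3.62 and 2.34 CPM in WT and at 19.5, 13.8 and 14.5 CPM in Ubqln1-/- libraries. Every knockout library lay above every WT library by more than the range within either group. Vill rose 4.77-fold (log2 fold change 2.25 with a standard error of 0.22, edgeR adjusted p = 0.000111). Plcd1, on the opposite strand and 2 bases away, had at most 0.285 CPM in any of the 6 libraries. The counting is not stated to use strand, so reads of Vill could not be told apart from those of an antisense partner.

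Trim46 (chr3:89234169-89246358, minus strand), a tripartite motif protein known for organizing microtubules in neurons, was at 3.26, 2.22 and 1.69 CPM in WT and 8.1, 4.88 and 6.03 CPM in Ubqln1-/- libraries. The groups were separate, with the largest value in Ubqln1-/- replicate 1. It rose 2.68-fold (log2 fold change 1.42 with a standard error of 0.22, edgeR adjusted p = 0.0324). Krtcap2 overlaps it on the other strand and was at 34.4, 38.8 and 36.9 CPM in WT and 35.3, 33.7 and 35.1 CPM in Ubqln1-/- libraries (edgeR adjusted p = 1).

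Slfn1 (chr11:83116820-83122670, plus strand) belongs to the Schlafen family, first described for its link to lymphocyte quiescence. Its level was 1.85, 2.1 and 2.39 CPM in WT and 8.9, 11.1 and 5.46 CPM in Ubqln1-/- libraries. The knockout values spread over a wide range, and the lowest of them, in replicate 3, was still above each WT value. Slfn1 rose 4-fold (log2 fold change 2.00 with a standard error of 0.35, edgeR adjusted p = 0.0494). Its neighbours on either side were other Schlafen genes, and neither passed the test. Slfn2 was at 471, 486 and 437 CPM in WT and 487, 502 and 465 CPM in Ubqln1-/- libraries, and Slfn3 was at 5.75, 4.87 and 7.07 and 6.49, 6.94 and 6.97 CPM. Schlafen genes resemble each other in sequence, so reads could have been split among them.

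The genes that fell beside Ubqln1 were Car2, Arhgap31, Tns3 and Setbp1. Car2 (chr3:14886269-14900770, plus strand), a cytosolic carbonic anhydrase, was at 30.8, 27.2 and 25.6 CPM in WT and 16.5, 13.6 and 15.6 CPM in Ubqln1-/- libraries (log2 fold change -0.87 with a standard error of 0.14, edgeR adjusted p = 0.0324). Arhgap31 (chr16:38598343-38713035, minus strand), a GTPase-activating protein for Rac and Cdc42, was at 25.4, 18.7 and 21.9 CPM and 10.9, 11.3 and 9.96 CPM (log2 fold change -1.03 with a standard error of 0.17, edgeR adjusted p = 0.0334). These levels correspond to 1.82-fold and 2.05-fold more mRNA in WT cells. Tns3 (chr11:8431652-8664758, minus strand) encodes a tensin, which ties integrin adhesions to actin. It was at 43, 34.8 and 44.9 CPM in WT and 22.2, 24.9 and 19.3 CPM in Ubqln1-/- libraries (log2 fold change -0.88 with a standard error of 0.15, edgeR adjusted p = 0.0494). Setbp1, on chromosome 18, encodes a nuclear protein that binds SET. It was at 36, 29.3 and 39.4 CPM and 25.2, 22.9 and 20.1 CPM (log2 fold change -0.62 with a standard error of 0.11, edgeR adjusted p = 0.0494). In each of these 4 genes all 3 WT libraries lay above all 3 Ubqln1-/- libraries, as they did in 3.44% of all tested genes.

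How far these calls rested on single libraries differed between the genes. The number of called genes was 4, 5 and 2 without WT replicate 1, 2 and 3, and 2, 3 and 11 without Ubqln1-/- replicate 1, 2 and 3. Ubqln1 and Vill passed in 6 of 6 fits that left out 1 resting library, with an edgeR adjusted p of at most 0.00227 for Vill. Trim46 did not pass in 3 of 6 fits, those without WT replicate 2, WT replicate 3 or Ubqln1-/- replicate 1 (highest edgeR adjusted p = 0.237). Arhgap31, Tns3 and Setbp1 passed without WT replicate 2 and in none of the 5 other fits, where the highest edgeR adjusted p was 0.229, 0.333 and 0.35. Slfn1 passed without Ubqln1-/- replicate 3 and in none of the 5 others (highest edgeR adjusted p = 0.346). Car2 did not pass in any of the 6, with an edgeR adjusted p of 0.0598 to 0.224. The direction of all 8 genes was the same in each of these fits. With all libraries kept, Slfn1 did not pass with limma and voom, with RLE normalization, with a minimum of 10 counts or over the 6 resting libraries alone. Tns3 and Setbp1 did not pass with limma and voom or over the 6 resting libraries, and Trim46 did not over the 6 resting libraries. With the replicate number as a block, all 8 passed, with an edgeR adjusted p of at most 0.00651 (Setbp1).

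**Figure D2:**
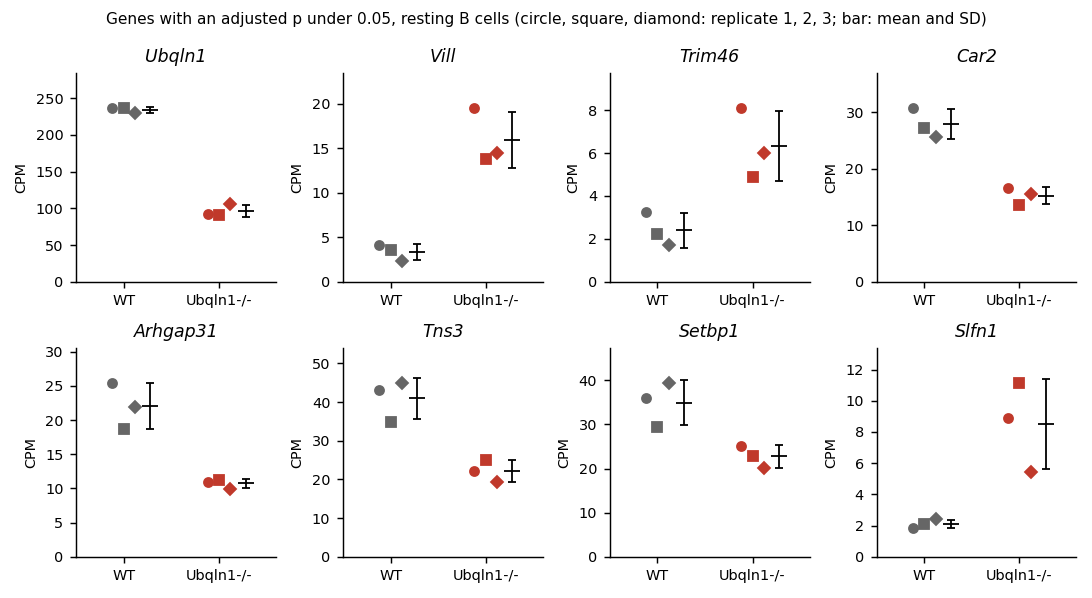
CPM (vertical axis, from 0) of each resting library for the 8 genes with an adjusted p under 0.05, WT in grey and Ubqln1-/- in red, with the symbol giving the replicate and the black bar the mean and SD of 3 libraries. The groups do not overlap in any panel, and Slfn1 has the widest knockout spread relative to its mean, from 5.46 to 11.1 CPM.

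The genes beside the called ones did not pass the test. The nearest tested genes on either side of Ubqln1 were Idnk, with a log2 fold change of 0.00098, and Gkap1, with -0.04. Within 250000 bases of Ubqln1, 7 tested genes had a median log2 fold change of -0.02 and 0 of them passed. Around the other called genes 0 tested neighbours passed either, among them 25 near Trim46 and 17 near Slfn1. Of the 17 near Slfn1, 3 had an unadjusted p under 0.05, where 4.22% of all tested genes did. The median log2 fold change of the 17 was 0.10. The 1 tested gene near Tns3, Pkd1l1, was at 1.09, 1.4 and 1.64 CPM in WT and 0.995, 0.985 and 0.569 CPM in Ubqln1-/- libraries (log2 fold change -0.70, unadjusted p = 0.0186, edgeR adjusted p = 1), the same side as Tns3. Setbp1 had 0 tested genes in its window.

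Among the other ubiquilins, levels per length were compared as RPKM (counts scaled to the library size and to the counted width of the gene). Ubqln2 stood at 18.3 ± 0.483 RPKM in WT and 17.9 ± 0.667 in Ubqln1-/- cells (SD, n = 3), and Ubqln4 at 42.3 ± 5.04 and 40.7 ± 2.86. Ubqln1 was at 63.5 ± 1.08 RPKM in WT, above both, and at 26.3 ± 2.23 in Ubqln1-/- cells, between them. The log2 fold changes of Ubqln2 and Ubqln4 were -0.03 (standard error 0.05) and -0.05 (standard error 0.11), so neither mRNA differed by more than its spread. Ubqlnl had no count in any resting library. Of 17 tested genes of ubiquilin family and client triage, which also holds the shuttle factor Rad23b, the BAG6 complex and VCP with its cofactors, Ubqln1 was the 1 that passed. Bag6, which holds hydrophobic clients in the cytosol, had a log2 fold change of -0.09 (standard error 0.05).

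No gene of the proteasome, of mitochondrial import or of the stress responses passed the adjusted threshold. For reading these lists, 2.42% of all tested genes were higher and 1.79% were lower in Ubqln1-/- cells at an unadjusted p under 0.05, 4.22% in all. The 46 tested proteasome genes had a median log2 fold change of -0.01, a range of -0.09 to 0.09, and 0 with an unadjusted p under 0.05. For 36 genes of mitochondrial protein import the median was -0.04 with 0 such genes, and the smallest p was that of Timm13, a chaperone of the intermembrane space (48.8, 61.1 and 53.4 CPM in WT, 49.3, 46.5 and 51 CPM in Ubqln1-/- libraries, log2 fold change -0.16). For 77 nuclear-encoded subunits of the respiratory chain and ATP synthase the median was -0.03. Of these, 54 had a log2 fold change below 0 and 2 an unadjusted p under 0.05, Ndufa2 of complex I (-0.17, standard error 0.06) and Uqcrh of complex III (-0.13, standard error 0.05).

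Mitochondrial proteases and quality control (20 genes) had a median of -0.0077, cytosolic chaperones (27 genes) -0.02, the unfolded protein response of the endoplasmic reticulum (26 genes) -0.05 and autophagy (29 genes) -0.0099, with 0 genes at an unadjusted p under 0.05 in each. The integrated stress response, the program driven by ATF4 when translation initiation is held back, had a median of -0.16, and 18 of its 20 tested genes were below 0. Against the WT mean of each gene, the median member stood at -0.34, 0.21 and 0.15 in log2 CPM in the WT libraries. In the Ubqln1-/- libraries it stood at -0.30, 0.01 and -0.12, so the groups overlapped on this measure. Asns, asparagine synthetase, was at 6.39, 13.1 and 12.7 CPM in WT and 5.49, 9.62 and 6.69 CPM in Ubqln1-/- libraries (log2 fold change -0.58 with a standard error of 0.32, edgeR adjusted p = 1). Replicate 1 was the lowest library in both genotypes and the groups overlapped, while the Ubqln1-/- library was the lower of each same-numbered pair (with the block, edgeR adjusted p = 0.075). Chac1, a glutathione-degrading enzyme, had a log2 fold change of -0.58 (standard error 0.40), Hspa1a, an inducible HSP70, -0.77 (standard error 0.66), and Wipi1, of autophagy, -0.48 (standard error 0.36).

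No gene of B cell signaling or of the cell cycle passed the adjusted threshold at rest. For 25 genes of the BCR complex and proximal signaling the median log2 fold change was 0.02, with a range of -0.13 to 0.11 and 0 genes at an unadjusted p under 0.05. The antibody chain genes Ighm, Ighd and Igkc were not among the counted genes, so the receptor chains were not measured. Syk, the kinase that starts the cascade, was at 1291, 1123 and 1095 CPM in WT and 1262, 1250.5 and 1283 CPM in Ubqln1-/- libraries. The 26 immediate early and activation genes had a median of -0.12 with 19 below 0. Myc was at 77.7, 126 and 96.1 CPM in WT and 70.9, 106 and 70.5 CPM in Ubqln1-/- libraries (log2 fold change -0.28 with a standard error of 0.18, edgeR adjusted p = 1), and Egr2, a reporter of antigen receptor signals, at 23.6, 34.8 and 30.8 and 20.2, 24.7 and 21 CPM (log2 fold change -0.44 with a standard error of 0.18, edgeR adjusted p = 1). Both sets of values overlapped between genotypes. Myc was lower in the Ubqln1-/- library of each same-numbered pair (with the block, edgeR adjusted p = 0.445).

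Ccnd2, which encodes Cyclin D2, was at 83.6, 72.3 and 54.1 CPM in WT and 75, 87.7 and 66.6 CPM in Ubqln1-/- libraries (log2 fold change 0.13 with a standard error of 0.18, edgeR adjusted p = 1). Ccnd3, the gene of Cyclin D3, was at 67.8, 67.7 and 60.7 and 65, 58.3 and 61.6 CPM (log2 fold change -0.09 with a standard error of 0.06, edgeR adjusted p = 1). Of 27 cell cycle and quiescence genes, E2f1 alone had an unadjusted p under 0.05, at 14.3, 13.8 and 12.1 CPM in WT and 15.7, 15.5 and 15.5 CPM in Ubqln1-/- libraries (log2 fold change 0.22 with a standard error of 0.10, edgeR adjusted p = 1). Of 14 tested BCL2 family genes, which control mitochondrial apoptosis, Bcl2l2 was the 1 higher at an unadjusted p under 0.05 (log2 fold change 0.16 with a standard error of 0.07, edgeR adjusted p = 1) and Bbc3 was the 1 lower (log2 fold change -0.28 with a standard error of 0.13, edgeR adjusted p = 1).

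Interferon-stimulated genes, which cells transcribe once interferon receptors are engaged, lay mostly on the higher side in resting Ubqln1-/- cells, although none of them passed the adjusted threshold. Of 35 tested, 32 had a log2 fold change above 0, the median was 0.24, and 6 had an unadjusted p under 0.05, each of them higher. In 12 of the 35 every Ubqln1-/- library exceeded every WT library, where 4.45% of all tested genes did so. The median member stood at 0.06, -0.06 and 0.04 in the WT libraries and at 0.27, 0.23 and 0.15 in the Ubqln1-/- libraries, as log2 CPM against the WT mean of each gene. All 3 knockout libraries were thus above all 3 WT libraries on this measure, and replicate 3 was nearest to WT. The list was chosen with results of these libraries known, so its direction is a description.

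The member with the smallest p was Ifi44, an interferon-induced protein that restrains viral replication, at 0.32, 0.0779 and 0.249 CPM in WT and 1.18, 1.34 and 0.807 CPM in Ubqln1-/- libraries (log2 fold change 2.46 with a standard error of 0.54, edgeR adjusted p = 0.155). It rests on few reads, with 2 counts in the lowest library. Oas2, an oligoadenylate synthetase that activates RNase L, was at 3.07, 2.38 and 3.14 CPM in WT and 6.25, 7.52 and 5.5 CPM in Ubqln1-/- libraries (log2 fold change 1.18 with a standard error of 0.36, edgeR adjusted p = 0.681). Its relatives Oasl1 and Oasl2 were at 9.65, 9.39 and 11.6 and 3.07, 3.55 and 3.29 CPM in WT and at 14.5, 14.8 and 13.2 and 5.83, 6.85 and 4.36 CPM in Ubqln1-/- libraries. Ifi27l2a was at 21, 25 and 20.7 CPM in WT and 27.1, 31.8 and 26.2 CPM in Ubqln1-/- libraries (log2 fold change 0.35 with a standard error of 0.13, edgeR adjusted p = 0.915). In each of these genes the groups did not overlap. Isg15, the ubiquitin-like modifier often used as a marker of interferon exposure, was at 2.69, 2.92 and 2.84 CPM in WT and 3.03, 2.95 and 3.08 CPM in Ubqln1-/- libraries (log2 fold change 0.10 with a standard error of 0.34, edgeR adjusted p = 1). Mx1, which blocks viral nucleocapsids, overlapped between groups (2.69, 1.52 and 1.99 CPM and 2.37, 2.37 and 2.28 CPM), and the transcription factor Stat2 had a log2 fold change of -0.02 (standard error 0.11). The spread across the list was therefore wide, from -0.12 for Ifi35 to 2.46 for Ifi44.

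MHC class I genes, whose products present peptides of cytosolic proteins after proteasomal cleavage, showed the same side. Of 14 tested, 12 had a log2 fold change above 0, the median was 0.15, 8 had an unadjusted p under 0.05 and each of the 8 was higher, while 0 passed the adjusted threshold. In 9 of 14 the groups did not overlap, all with Ubqln1-/- cells above, where 4.45% of all tested genes did so. H2-Q6 had the smallest p, at 229, 223 and 228 CPM in WT and 297, 290.3 and 261 CPM in Ubqln1-/- libraries (log2 fold change 0.32 with a standard error of 0.06, edgeR adjusted p = 0.0657). The classical heavy chain H2-K1 was at 1746, 1929 and 1831 CPM in WT and 2141, 2213 and 2063 CPM in Ubqln1-/- libraries (log2 fold change 0.22 with a standard error of 0.06, edgeR adjusted p = 0.449), and H2-D1 was at 1323, 1439 and 1375 and 1471, 1513 and 1517 CPM (log2 fold change 0.12 with a standard error of 0.06, edgeR adjusted p = 1). B2m, the shared light chain, was at 1336, 1460.2 and 1472 CPM and 1572, 1679 and 1476 CPM (log2 fold change 0.15 with a standard error of 0.07, edgeR adjusted p = 1). Tap1, a subunit of the peptide transporter, was at 313, 297 and 311 CPM and 368, 362 and 341 CPM (log2 fold change 0.22 with a standard error of 0.08, edgeR adjusted p = 0.98), and its partner Tap2 at 217, 205 and 207 and 213, 192 and 211 CPM (log2 fold change -0.03).

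The H2-Q genes, nonclassical MHC class I genes that arose by repeated duplication, cannot be read as separate measurements. H2-Q7 and H2-Q9 had identical counts in all 6 libraries, 115, 115 and 104 CPM in WT and 173, 183 and 133 CPM in Ubqln1-/- libraries (log2 fold change 0.55 with a standard error of 0.11, edgeR adjusted p = 0.115). H2-Q5 and H2-Q8 differed by 1 count in 1 library and were at 54.7, 50.9 and 49.8 CPM and 68.9, 67.4 and 60.6 CPM for H2-Q5 (log2 fold change 0.34 with a standard error of 0.07, edgeR adjusted p = 0.115). Reads of one member could have been counted for another, so how many of these genes differed is uncertain. Ubqln1-/- replicate 3 held the lowest knockout value of H2-Q5, H2-Q6 and H2-Q7. Without that library H2-Q6 and H2-Q7 reached edgeR adjusted p-values of 0.0219 and 0.0219, a choice that favours a smaller p. In the other fits that left out 1 resting library the edgeR adjusted p was 0.164 to 0.606 for H2-Q6 and 0.248 to 0.651 for H2-Q7.

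**Figure D3:**
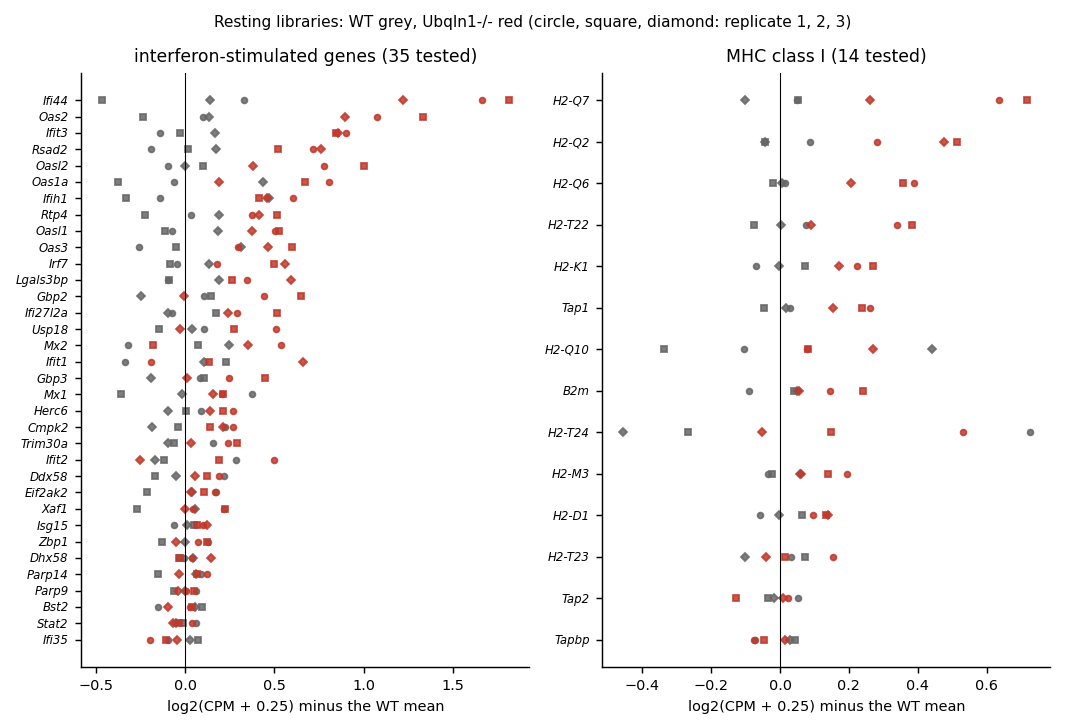
Log2(CPM + 0.25) of each resting library minus the WT mean of the gene (horizontal axis) for the tested interferon-stimulated genes (1 of 35 is not drawn) and the 14 tested MHC class I genes, WT in grey and Ubqln1-/- in red, with the symbol giving the replicate. Red points lie to the right of all grey points in 12 of 35 and 9 of 14 genes, where 4.45% of all tested genes were so separated. Replicate 3 is the Ubqln1-/- library nearest to WT in H2-Q6 and H2-Q7.

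Promoters of some of these genes are given because interferon-driven genes share a short element, the interferon-stimulated response element. The letters GAAA, then 2 bases of any kind, then GAAA were searched on both strands of the 300 bases from 250 before to 50 after each RefSeq start (GRCm38.p6), counting matches that overlap each other as separate. They occur in 3.85% of the 10067 tested genes that have a promoter in the table, in 14 of the 24 interferon-stimulated genes that have one, and in 3 of 12 MHC class I genes (B2m, H2-T22 and H2-T23). None of the 5 called genes with a promoter there holds a match, Vill and Slfn1 included. Of 15 further named genes with a promoter, Ddx60 holds the letters, at 2 places. Among the interferon-stimulated genes, Ifi44, Oasl1 and Oasl2, whose groups did not overlap, hold no match. Isg15 and Stat2, which differed little between genotypes, hold the letters. Whether a match goes with a difference at rest was not tested. A match is a description of letters and not of a bound site. Capitals mark the matches in Ddx60 (chr8:61927837-61928136, plus strand), Ifit3 (chr19:34583279-34583578, plus strand) and Rsad2 (chr12:26456403-26456702, minus strand), 3 genes whose groups did not overlap, and Slfn1 (chr11:83116570-83116869, plus strand) is shown as a called gene without a match.

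Ddx60 promoter: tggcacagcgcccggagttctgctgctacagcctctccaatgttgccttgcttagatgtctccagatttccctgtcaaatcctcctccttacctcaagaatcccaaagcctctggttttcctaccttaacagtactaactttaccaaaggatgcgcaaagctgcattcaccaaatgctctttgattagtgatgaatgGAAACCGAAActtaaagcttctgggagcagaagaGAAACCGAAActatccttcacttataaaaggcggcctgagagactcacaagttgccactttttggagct
Ifit3 promoter: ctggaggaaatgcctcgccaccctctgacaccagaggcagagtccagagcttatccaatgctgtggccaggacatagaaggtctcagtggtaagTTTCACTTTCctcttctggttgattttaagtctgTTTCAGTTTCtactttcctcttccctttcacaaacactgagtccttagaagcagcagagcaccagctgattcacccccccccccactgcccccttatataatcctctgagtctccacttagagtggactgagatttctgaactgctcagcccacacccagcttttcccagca
Rsad2 promoter: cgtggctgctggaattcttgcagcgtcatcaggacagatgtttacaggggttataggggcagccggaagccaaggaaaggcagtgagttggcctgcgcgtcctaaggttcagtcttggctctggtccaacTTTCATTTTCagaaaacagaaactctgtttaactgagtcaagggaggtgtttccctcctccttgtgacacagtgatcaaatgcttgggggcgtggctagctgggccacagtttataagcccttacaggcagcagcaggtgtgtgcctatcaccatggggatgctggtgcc
Slfn1 promoter: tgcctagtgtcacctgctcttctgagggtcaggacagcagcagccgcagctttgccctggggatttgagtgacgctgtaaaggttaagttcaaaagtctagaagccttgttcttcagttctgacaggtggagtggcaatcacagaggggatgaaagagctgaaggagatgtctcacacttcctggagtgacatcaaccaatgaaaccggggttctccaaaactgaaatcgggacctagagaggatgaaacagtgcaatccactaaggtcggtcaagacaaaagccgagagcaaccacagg

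Ifit3 and Rsad2, whose promoters hold the letters, were at 1.28, 1.4 and 1.64 and 0.639, 0.779 and 0.897 CPM in WT and 2.89, 2.77 and 2.8 and 1.42, 1.21 and 1.47 CPM in Ubqln1-/- libraries, and neither passed the test (edgeR adjusted p = 1 and 1). Both were near the low end of the tested range, where counts limit what can be told. Ddx60, a helicase of the antiviral response, was at 4.48, 2.69 and 3.59 CPM in WT and 9, 8.06 and 5.6 CPM in Ubqln1-/- libraries (log2 fold change 1.10 with a standard error of 0.26, edgeR adjusted p = 0.234). Ifnlr1, the ligand-binding chain of the receptor for lambda interferons, was at 5.18, 5.65 and 6.18 CPM in WT and 10.1, 11.5 and 8.25 CPM in Ubqln1-/- libraries (log2 fold change 0.81 with a standard error of 0.17, edgeR adjusted p = 0.132). Both genes had separate groups.

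Ddx60, Ifnlr1 and the H2-Q genes above belong to 20 further genes, those with the smallest p among the 41 genes beyond the 8 that passed in the alternative fit with the replicate number as a block, where the edgeR adjusted p of the 20 was at most 0.0125 (Eng). In the edgeR fit without it, described here, none of the 20 passed, so their values are given as measured. With DESeq2, also without the block, all of the 20 but Crim1, Igf1r, Syce1 and Eng passed. Of the 32 genes that DESeq2 gave, 29 were among the 49 given by edgeR with the block. In 19 of the 20 the groups did not overlap, Igf1r being the exception, where 7.89% of all tested genes had separate groups. This share follows from how the genes were chosen. Values on the higher side were found for Hspg2, which encodes the basement membrane proteoglycan perlecan, at 5.37, 3.97 and 3.34 CPM in WT and 12.8, 10.5 and 7.35 CPM in Ubqln1-/- libraries (log2 fold change 1.29 with a standard error of 0.28, edgeR adjusted p = 0.155). Cox6b2, the testis form of a cytochrome c oxidase subunit, was at 0.959, 0.507 and 0.548 CPM and 3.93, 1.92 and 1.71 CPM (log2 fold change 1.95 with a standard error of 0.39, edgeR adjusted p = 0.115). Selenon, a selenoprotein of the endoplasmic reticulum, was at 3.58, 2.45 and 2.04 CPM and 5.54, 4.52 and 6.17 CPM (log2 fold change 1.03 with a standard error of 0.20, edgeR adjusted p = 0.115). Lrrc8b, a subunit of volume-regulated anion channels, was at 7.16, 6.82 and 7.97 CPM and 9.8, 12.1 and 12.1 CPM (log2 fold change 0.63 with a standard error of 0.13, edgeR adjusted p = 0.115). Eng, which encodes the TGFβ coreceptor endoglin, was at 6.58, 6.9 and 7.87 CPM and 13.8, 10.3 and 18.5 CPM (log2 fold change 1.00 with a standard error of 0.27, edgeR adjusted p = 0.479).

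On the lower side, Alcam, an adhesion molecule of leukocytes, was at 134, 135 and 146 CPM in WT and 97.7, 102 and 104 CPM in Ubqln1-/- libraries (log2 fold change -0.45 with a standard error of 0.10, edgeR adjusted p = 0.138). Nid1, which encodes the basement membrane protein nidogen, was at 21.5, 28.1 and 31.1 CPM and 15, 14.9 and 18.2 CPM (log2 fold change -0.75 with a standard error of 0.17, edgeR adjusted p = 0.211). Cyp27a1, a mitochondrial sterol hydroxylase, was at 12, 12.9 and 12.1 CPM and 6.77, 6.76 and 7.02 CPM (log2 fold change -0.85 with a standard error of 0.18, edgeR adjusted p = 0.132). Its values lay close together within each group, and it passed with limma and voom. Crim1, a transmembrane protein that binds bone morphogenetic proteins, was at 13.8, 16.9 and 21.2 CPM and 9.28, 10.8 and 11.6 CPM (log2 fold change -0.72 with a standard error of 0.26, edgeR adjusted p = 0.909). Igf1r, the receptor of insulin-like growth factor, overlapped between groups at 17.8, 14.2 and 9.16 CPM and 9.19, 9.13 and 6.55 CPM (log2 fold change -0.72 with a standard error of 0.29, edgeR adjusted p = 1).

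The largest log2 fold change among the 20 further genes was that of a gene with no name. Entrez gene 100504785, which neither annotation used here names or places, was at 0.32, 0.429 and 0.498 CPM in WT and at 552, 1472 and 28.4 CPM in Ubqln1-/- libraries. The groups were separate, but the knockout libraries themselves spread over a wide range, highest in replicate 2 and lowest in replicate 3 (log2 fold change 10.64 with a standard error of 2.08, edgeR adjusted p = 0.115). The same order of replicates returned with anti-IgM, at 323, 866 and 17.8 CPM, and with LPS, at 488, 1244 and 23.1 CPM, while WT libraries stayed between 0.251 and 1.03 CPM in the 3 conditions. Without Ubqln1-/- replicate 3, its lowest knockout library, its edgeR adjusted p was 0.0286. In the other fits that left out 1 resting library it was 0.232 to 0.651. Another unnamed gene, Entrez gene 676708, was at 59.7, 58 and 51.8 CPM in WT and 83.5, 91 and 66.4 CPM in Ubqln1-/- libraries (log2 fold change 0.51 with a standard error of 0.11, edgeR adjusted p = 0.208). Syce1, a synaptonemal complex protein of meiotic cells, had 0 counts in the 3 WT libraries, where a count of 0 allows up to 0.117 to 0.192 CPM, and 3, 2 and 31 counts in the Ubqln1-/- libraries. Nearly all of its reads came from replicate 3, and no fold is given.

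Within the gelsolin and villin family, to which Vill belongs, the other members did not pass. Capg, an actin-capping protein, and Gsn, gelsolin, were at 283 ± 21.8 and 24.3 ± 3.31 RPKM in WT and at 273 ± 7.51 and 25.7 ± 3.55 RPKM in Ubqln1-/- cells (SD, n = 3). Vill was far below them at 1.15 ± 0.311 RPKM in WT and 5.47 ± 1.07 RPKM in Ubqln1-/- cells. Vil1, villin itself, had an unadjusted p of 0.00999, with 0.256, 0.0779 and 0.349 CPM in WT and 0.237, 0.537 and 1.85 CPM in Ubqln1-/- libraries. The groups overlapped and replicate 3 alone was high. Scin, scinderin, was at 2.37, 2.45 and 2.39 CPM and 5.92, 2.55 and 2.7 CPM, where replicate 1 held the high value.

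Markers of B cell subsets showed no called difference at rest, and Cd93 varied more among the WT libraries than between the genotype means. Of 11 follicular and marginal zone genes the median log2 fold change was -0.08 with 0 at an unadjusted p under 0.05. Cr2 (the complement receptor) was at 210.4, 250.4 and 258 CPM in WT and 221, 279.7 and 227 CPM in Ubqln1-/- libraries, and Fcer2a (the low-affinity IgE receptor) at 619, 694 and 498 and 630.1, 697 and 634 CPM. Of 8 genes of B1 cells, the innate-like B cells, the median was -0.09, Cd5 was at 2.17, 0.974 and 1.44 and 1.52, 1.39 and 1.57 CPM, and 0 had an unadjusted p under 0.05. Cd93, found on immature transitional cells, was at 92.3, 41.4 and 26.9 CPM in WT and 80.2, 61.5 and 53.2 CPM in Ubqln1-/- libraries, with the highest value in replicate 1 of each genotype.

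Markers of germinal center and secreting B cells did not pass the test, and some of them were highest in WT replicate 3. S1pr2, a receptor that keeps germinal center B cells in place, was at 6.52, 5.49 and 14 CPM in WT and 5.97, 4.88 and 2.85 CPM in Ubqln1-/- libraries. For 6 germinal center genes the median log2 fold change was -0.56, with 0 at an unadjusted p under 0.05. Of 5 tested plasma cell genes all 5 were below 0, with a median of -0.34, and 2 had an unadjusted p under 0.05. Prdm1, the transcription factor of plasma cell fate, was at 24.6, 28.7 and 31.9 CPM in WT and 17.5, 22.9 and 21.8 CPM in Ubqln1-/- libraries (log2 fold change -0.46 with a standard error of 0.15, edgeR adjusted p = 0.862), and Jchain, which joins polymeric antibodies, at 158, 190 and 390 and 116, 143 and 133 CPM (log2 fold change -0.91 with a standard error of 0.37, edgeR adjusted p = 1). The Jchain groups were separate, with 1 WT library, replicate 3, far above the others. Sdc1, a surface proteoglycan of plasma cells, went the other way in that library, at 69.8, 71.2 and 43.1 CPM in WT and 51.4, 48.2 and 45.5 CPM in Ubqln1-/- libraries. Whether these cell types had a part in any difference above was not tested.

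**Figure D4:**
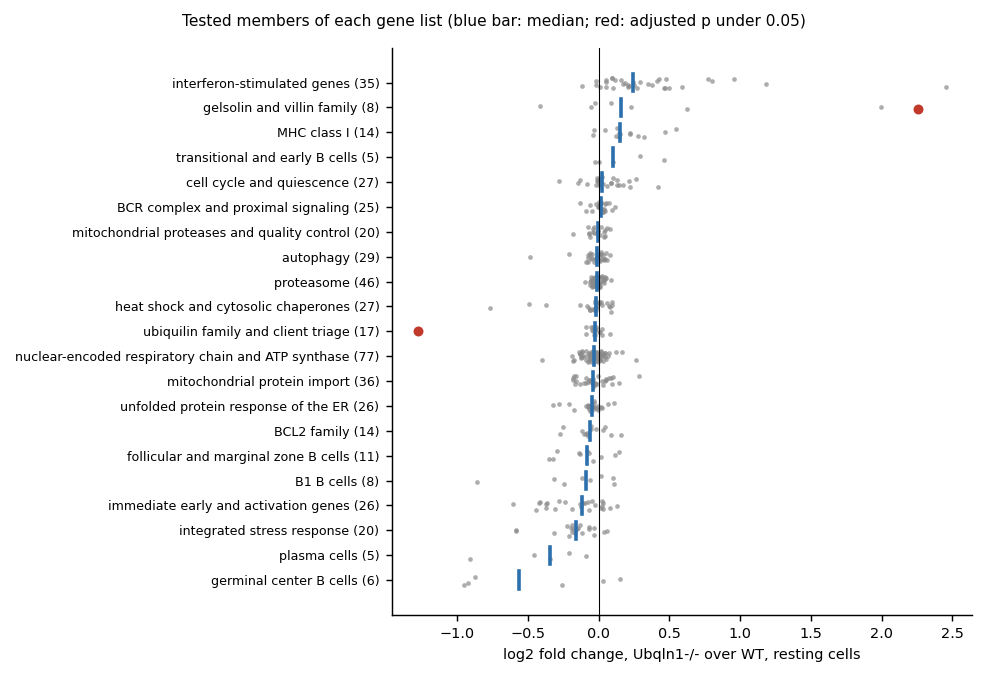
Log2 fold change (Ubqln1-/- over WT, resting cells, horizontal axis) of every tested member of 21 gene lists, with the number tested in brackets, the list median as a blue bar and members with an adjusted p under 0.05 in red. Medians run from -0.56 for 6 germinal center genes to 0.24 for 35 interferon-stimulated genes, and Ubqln1 and Vill are the only red points.

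The genotype differences at rest were set beside those after 4 hr of stimulation and the change between them was tested for each gene as an interaction. With edgeR, 0 of 14161 genes had an interaction with anti-IgM at an adjusted p under 0.05 (140 or 0.989% at an unadjusted p under 0.05, 0 with DESeq2 and 0 with limma and voom), and 0 had one with LPS (220 or 1.55% at an unadjusted p under 0.05, 0 with DESeq2 and 0 with limma and voom). Between genotypes, 14 genes (0.0989%) passed with anti-IgM and 6 (0.0424%) with LPS. Vill was higher in Ubqln1-/- cells by 2.25 at rest, 2.46 with anti-IgM and 2.34 with LPS on the log2 scale, while its WT level with anti-IgM was 2.11, 1.59 and 1.27 CPM. The log2 fold change of Setbp1 was -0.62, -0.56 and -0.76, and that of Arhgap31 was -1.03, -0.77 and -0.78. That of Car2 was -0.87 at rest, -0.39 with anti-IgM and -0.45 with LPS (interaction unadjusted p = 0.032 and 0.0515, edgeR adjusted p = 1 for both), and that of Tns3 was -0.88, -0.50 and -0.63. Trim46 was at 1.32, 1.06 and 1.06 CPM in WT and 1.33, 1.19 and 1.41 CPM in Ubqln1-/- cells with anti-IgM, a log2 fold change of 0.18 against 1.42 at rest (interaction unadjusted p = 0.00235 and edgeR adjusted p = 1). Slfn1 differed by 1.88 with anti-IgM and by 0.61 with LPS, against 2.00 at rest (interaction with LPS unadjusted p = 0.013 and edgeR adjusted p = 1). Across conditions, libraries that carry one number within a genotype shared deviations (correlations of 0.228 to 0.516), so the 3 conditions are not independent samples. With the replicate number as a block, edgeR gave 430 genes with an LPS interaction at an unadjusted p under 0.05, and 377 with anti-IgM. None of them passed the adjusted threshold. For LPS the smallest adjusted p was 0.0561 with edgeR and the block, 0.08 with DESeq2 and 0.9998 with edgeR without the block.

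**Figure D5:**
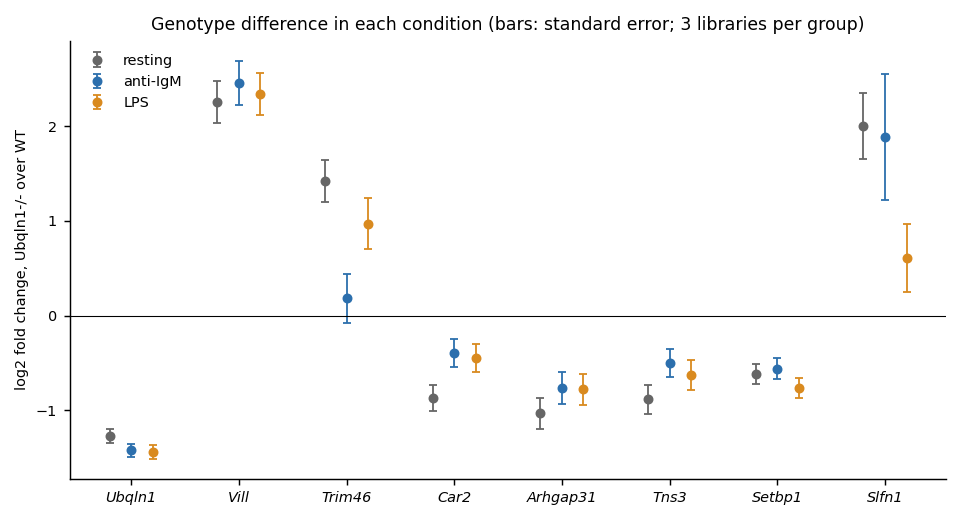
Log2 fold change (Ubqln1-/- over WT, vertical axis) of the 8 genes called at rest, in resting, anti-IgM-treated and LPS-treated cells, with the standard error as bars and 3 libraries per group. Ubqln1, Vill and Setbp1 have like values in the 3 conditions, and Trim46 goes from 1.42 at rest to 0.18 with anti-IgM.

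The interferon-stimulated genes lay mostly above 0 at rest and with anti-IgM and mostly below 0 with LPS. Their median log2 fold change between genotypes was 0.24 at rest with 32 of 35 above 0, 0.15 with anti-IgM with 28 above 0, and -0.58 with LPS with 3 above 0. Over all tested genes the medians were 0.0023, 0.002 and 0.0036. Ifit3 with LPS was at 28.7, 9.48 and 22.8 CPM in WT and 11.2, 5.15 and 7.08 CPM in Ubqln1-/- libraries, where WT replicate 2 lay below 1 knockout library. With all 18 libraries, 0 genes had an interaction between rest and LPS at an edgeR adjusted p under 0.05. Each library was left out in turn, which gave 0 to 10 such genes, and the 10 came without that WT LPS library. That fit was singled out after the values were seen, so the 10 are not support for a difference. Ubqln1-/- LPS replicate 2, the lowest knockout library for Ifit3, was kept in that fit, so the 10 depend on which libraries were kept. They are named here after their values were seen: Slfn8, Tor3a, Rsad2, Irf7, Dhx58, Hsh2d, Ifi213, Slfn5, Ifi214 and unnamed Entrez gene 100862514. Of these, 3 (Rsad2, Irf7 and Dhx58) are in the list of interferon-stimulated genes and 7 are not. Rsad2 then had an interaction of 2.23 on the log2 scale (edgeR adjusted p = 0.0164), against 1.94 with all 18 libraries (edgeR adjusted p = 1). For MHC class I the medians were 0.15 at rest, 0.23 with anti-IgM and 0.07 with LPS, with 12, 14 and 9 of 14 genes above 0. With anti-IgM, H2-Q6 (log2 fold change 0.40, edgeR adjusted p = 0.013) and H2-Q7 (0.63, edgeR adjusted p = 0.0399) passed between genotypes. So did H2-Q5, H2-Q8 and H2-Q9, which are not separate measurements. None of these H2-Q genes passed at rest or with LPS.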

How the data were processed

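Poly(A) RNA of splenic B cells was sequenced as single-end 50 base reads. The authors aligned reads with GSNAP to GRCm38 and deposited raw read counts per gene for each of the 18 libraries, with RPKM values that were not used here. The counter and the gene annotation are not given in the sources used here. RPKM printed in the text were computed from the deposited counts. Of 28096 genes, 25035 were named from RefSeq (GRCm38.p6) by Entrez identifier, 16 from GENCODE M21 alone and 3045 had no name, which held 3.88 to 4.23% of resting counts.

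Counts were tested with the quasi-likelihood test of edgeR 4.0.16 in R 4.3.3 (TMM normalization, filterByExpr, 1 term for each of 6 groups, Benjamini-Hochberg adjustment over 14161 genes). CPM values use TMM-scaled library sizes. The standard error is the absolute log2 fold change over the root of F. The fits were tested on simulated data. Alternatives were limma 3.58.1 with voom, DESeq2 1.42.0, RLE normalization, other filters, the replicate number as a block, the 6 resting libraries alone and each library left out. No resting library repeated another, as counts of replicates differed by 7.81 to 17.7 in chi-square per degree of freedom.

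The text names the ubiquilins, Myc, Ccnd2 and Ccnd3, every called gene, 20 further genes called with the block, up to 4 members of each list with the smallest p, the nearest tested neighbours and marker genes. List members beyond these (among them Isg15, Mx1, Stat2, Syk, Ifit3, Rsad2, Oasl2, B2m, H2-D1, Tap1, Tap2, Cr2, Fcer2a, Cd5, Capg and Gsn) were chosen after their values were seen. The members and lists were chosen with earlier results of these data known. Results for some genes are not reported here.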

Additional observations from a re-analysis of the deposited data

Results flagged for a closer look

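Oasl1, an interferon-induced relative of the oligoadenylate synthetases, was picked out because its genotype difference took opposite signs at rest and with LPS in every library. At rest it was at 9.65, 9.39 and 11.6 CPM in WT and 14.5, 14.8 and 13.2 CPM in Ubqln1-/- libraries, so that each knockout library lay above each WT library. With LPS it was at 142, 142 and 144 CPM in WT and 126, 106 and 107 CPM in Ubqln1-/- libraries, so that each lay below. The difference between the genotype effects was 0.81 on the log2 scale (standard error 0.22), and it did not pass the edgeR test over all genes (adjusted p = 0.9998).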

How the results depend on the processing

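Against 8 called genes at rest, limma with voom gave 6, RLE normalization 7, no filter on low counts 9, a minimum of 10 counts 7, DESeq2 32 and the 6 resting libraries alone 5. The replicate number as a block gave 49 genes (28 higher, 21 lower, among them the 8), 41 with limma and voom, and 90 over the 6 resting libraries. Same-numbered libraries of the 2 genotypes had correlated deviations of 0.298, 0.0826 and 0.197, and 6 of 6 correlated best with their own number. Against the stimulated groups of the same genotype, the best match had the same number in 12 of 12 comparisons. These are hints from the data that same-numbered libraries may be paired. The biological coefficient of variation, the spread between replicates, was 10.1% without the block and 6.08% with it. Leaving out 1 resting library gave 2 to 11 genes. Genes past the study's thresholds, 1 in the report, were 2 with DESeq2, with the block, with voom and the block and with the block over 6 libraries, 0 over the 6 libraries without it, and 0 to 1 with a library left out. Interactions with LPS numbered 0 to 10 with a library left out, 10 without WT LPS replicate 2, and those with anti-IgM 0 throughout. Of 1656 pairs of a named gene and an alternative, 1524 kept their side of the threshold, 38 lost a call, 94 gained one and 0 turned direction. Of 21 list medians, 5 of 315 values moved: MHC class I to 0.22 with voom and 0.25 without Ubqln1-/- replicate 3, gelsolin and villin genes to 0.31 without WT replicate 1 and 0.0042 without Ubqln1-/- replicate 1, and transitional B cell genes to 0.77 without WT replicate 1. The cause of these shifts was not tested. Low counts limit the precision for Vill, Trim46, Slfn1, Ifi44 and Rsad2.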
